A study of Mus musculus with 8 samples.

Results

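The cytochrome P450 genes were examined in GFP-positive cells sorted from mouse kidneys after ischemic injury and from control kidneys. Members were all genes with a symbol that begins with Cyp and a digit, read from probe sets assigned to a single gene, other than the vitamin D enzymes Cyp24a1 and Cyp27b1. This gave 71 of the 18193 genes measured. The ischemic group held 5 left kidneys taken 3 days after a 45-minute clamp of the artery and vein was lifted, with buprenorphine given after surgery. The control group held 3 kidneys, labelled normal, sham and non-ischemic, with no further account of a sham procedure. All mice were labelled as 6-month-old males carrying the FSP1-eGFP transgene on a C57BL/6 background. RNA from the sorted cells was amplified and hybridised to Affymetrix arrays, 1 array per kidney.

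Cytochrome P450s are heme enzymes that insert oxygen into their substrates with electrons passed on from a reductase or a ferredoxin. Families 1 to 3 oxidise drugs and other foreign compounds, family 4 hydroxylates fatty acids, the 2c and 2j subfamilies turn arachidonic acid into epoxides, and further families build or break down sterols, steroid hormones, bile acids and retinoic acid. In the mouse kidney the drug-oxidising and arachidonic acid P450s are best known from the proximal tubule, where several of them depend on androgen. The FSP1 (S100a4) promoter that drives the reporter is used to mark fibroblasts and is also active in leukocytes.

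The arrays had features that bear on every value given here. Ischemic 1 was the least like the rest. Its correlations with the 7 other arrays had a median of 0.753, against 0.850 to 0.913 for each other array. Xist, the RNA of the inactive X chromosome, was at 11.21 on ischemic 1, 9.39 on ischemic 2 and 11.01 on normal 1, and at 4.49 to 4.96 on the other 5 arrays, although every mouse was labelled male. On ischemic 1 and normal 1 the Y-linked gene Eif2s3y was at 5.84, against 7.68 to 8.87 on the other 6 arrays. Markers of several cell types were present. All 15 proximal tubule markers and all 12 macrophage markers reached the median level of the genes measured, as did 6 of 11 fibroblast markers. S100a4 itself was at 11.53 to 12.22 in ischemic arrays and 11.30 to 11.94 in normal arrays. Levels are log2(intensity + 16) after quantile normalization, on which an intensity of 1 reads 4.09. Brightness differs between probe sets, so levels are compared across arrays and not between genes.

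Most P450 genes were dim or overlapped between the groups, and a small number read lower on every ischemic array. Of the 71 members, 10 had every ischemic array below every normal array, which is 14.1% of the family, against 3.44% of all genes. Only Cyp2a12 had every ischemic array above every normal array, against 1.89% of all genes. The limma fit over all genes gave 0 members past an adjusted p of 0.05 (0% of all genes passed), and 12 members had an unadjusted p under 0.05 with a lower value in the ischemic arrays, against 5.02% of all genes. No member had an unadjusted p under 0.05 with a higher value, against 2.11% of all genes. The median difference over the 71 members, ischemic minus normal, was 0.013, against 0.041 over all genes, and 34 members were negative (45.2% of all genes were negative). Members of a subfamily have similar sequences and all were read on the same 8 arrays, so the 10 are not independent observations.

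**Figure D1:**
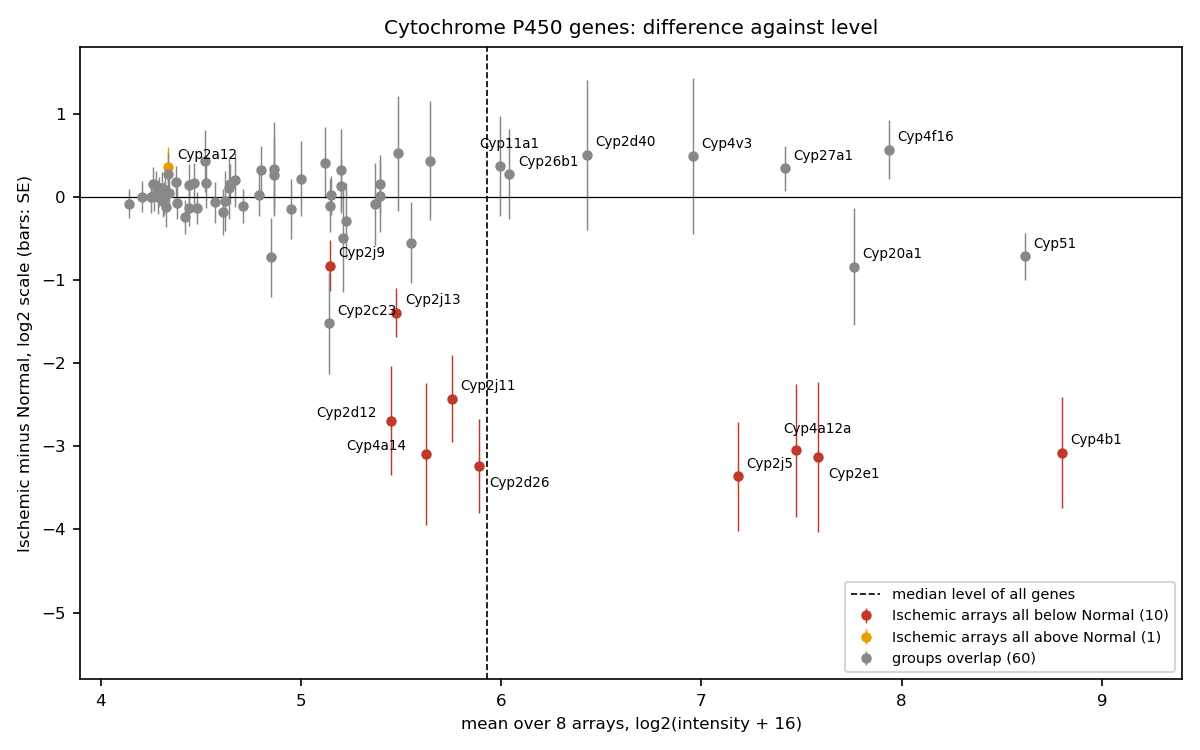
Difference between groups (vertical axis, ischemic minus normal on the log2 scale, with SE from limma) against the mean level over 8 arrays (horizontal axis, log2(intensity + 16)) for the 71 P450 genes. The 10 genes with the groups apart and lower in ischemic arrays lie between −3.36 and −0.83, the single one that is higher is Cyp2a12, and the dashed line is the median level of all genes at 5.93.

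Only 12 members, 16.9% of the family, had a mean that reached 5.93, the median level of the genes measured, and 59 lay below it. Cyp11a1 lay just above that line at 5.99, and Cyp2d26 just below it at 5.89. In 22 members, 31.0% of the family against 13.2% of all genes, no array reached 5, and their values ran from 4.09 to 4.99. These included Cyp1a1, Cyp1a2, Cyp7a1 and Cyp17a1, genes best known from the liver or from steroid-producing glands. At such levels the scale compresses any difference, so a small difference in these genes cannot be seen.

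Among the enzymes of drug oxidation, Cyp2e1, which oxidises ethanol, acetone and paracetamol, was at 4.75, 8.51, 7.62, 4.53 and 6.62 in ischemic arrays 1 to 5, against 9.23, 9.89 and 9.50 in the normal arrays. The normal arrays lay close together and the ischemic arrays were spread widely, with ischemic 2 nearest to the normal ones. The difference was −3.13 ± 0.90 (SE, n = 5 and 3; limma adjusted p = 0.341), which is 8.77-fold lower on this scale. Cyp2d26, of the subfamily that holds the human drug-metabolising enzyme CYP2D6, was at 4.40, 4.47, 5.48, 4.18 and 4.83 in ischemic arrays, against 9.13, 8.13 and 6.49 in normal arrays. Here 4 of the 5 ischemic arrays read under 5, with 5.48 on ischemic 3, and the normal arrays were spread. The difference was −3.24 ± 0.56 (limma adjusted p = 0.140), the lowest p in the family. Its relative Cyp2d12 was at 4.25, 4.69, 4.45, 4.27 and 4.55 in ischemic arrays, against 8.96, 7.01 and 5.44 in normal arrays, with a difference of −2.69 ± 0.65 (limma adjusted p = 0.217). The other 6 measured Cyp2d genes overlapped between groups. In bulk RNA of sorted cells, fewer cells of a type and less RNA per cell cannot be told apart.

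Of 25 genes in this class 13 were negative and 12 positive, 11 stayed under 5 on every array, and the 3 lower ones with groups apart were those just given. Cyp1a1, the classical target of the aryl hydrocarbon receptor, was near the floor on every array, with a difference of −0.25 ± 0.20 (limma adjusted p = 0.932). Cyp2a12 was at 4.20 to 5.01 in ischemic arrays and 4.11 to 4.12 in normal arrays, a difference of 0.35 ± 0.24 (limma adjusted p = 0.894) that lies at the edge of what the arrays read. Cyp2d40 averaged 6.62 ± 1.75 (SD) over 5 ischemic arrays and 6.11 ± 0.40 (SD) over 3 normal arrays, and its difference of 0.51 turned to −0.25 without ischemic 1.

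Among the arachidonic acid epoxygenases, all 5 measured Cyp2j genes were negative and 4 had the groups apart, none past the adjusted threshold. Cyp2j5, an epoxygenase of the mouse proximal tubule, was at 4.82, 6.76, 7.14, 4.62 and 6.27 in ischemic arrays, against 9.94, 9.49 and 8.43 in normal arrays. Its difference of −3.36 ± 0.66 (SE, n = 5 and 3; limma adjusted p = 0.149), or 10.3-fold lower on this scale, was close to those of several other members, and its dimmer probe set gave −2.02 with the groups overlapping, since ischemic 1 read above normal 3 there. Cyp2j11 was at 5.16, 4.43, 5.12, 4.93 and 4.58 in ischemic arrays, against 8.55, 7.35 and 5.92 in normal arrays, a difference of −2.43 ± 0.52 (limma adjusted p = 0.173). The gap between the groups was narrow there, since normal 3 read only 5.92. Cyp2j13 was at 4.91, 5.47, 4.75, 4.78 and 4.86 in ischemic arrays, against 5.98, 6.97 and 6.10 in normal arrays, a difference of −1.40 ± 0.30 (limma adjusted p = 0.171). Cyp2j9, known as an arachidonic acid oxidase of mouse brain, differed by −0.83 ± 0.31 (limma adjusted p = 0.576), with 4.20 to 5.47 in ischemic arrays and 5.61 to 5.72 in normal arrays. Cyp2j6 overlapped, at 4.22 to 6.18 in ischemic arrays and 5.40 to 6.23 in normal arrays.

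In the 2c subfamily none of the 11 measured genes had the groups apart, 8 were positive, and 4 stayed under 5 on every array. Cyp2c23, a kidney epoxygenase read here by a probe set marked as shared with other transcripts, was at 4.77, 4.59, 4.61, 4.32 and 4.57 in ischemic arrays, against 7.88, 5.75 and 4.64 in normal arrays. Normal 3 read inside the ischemic range, and the difference of −1.52 ± 0.61 had an adjusted p of 0.642 by limma. Cyp2c38 differed by 0.33 ± 0.28 (limma adjusted p = 0.935).

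Among the fatty acid hydroxylases of family 4, 3 of 13 genes were lower with the groups apart. Cyp4b1, which oxidises fatty acids and inhaled toxins, was at 5.56, 8.54, 8.38, 7.51 and 8.25 in ischemic arrays, against 10.54, 11.31 and 10.32 in normal arrays. Its difference was −3.08 ± 0.67 (SE, n = 5 and 3; limma adjusted p = 0.174), and ischemic 1 was the lowest array. Cyp4a12a, the androgen-dependent enzyme that turns arachidonic acid into a vasoconstrictor in the mouse kidney, was at 5.35, 8.59, 6.84, 4.57 and 6.30 in ischemic arrays, against 9.34, 9.74 and 9.04 in normal arrays, a difference of −3.05 ± 0.80 (limma adjusted p = 0.260). Cyp4a14, a target of the fatty acid receptor PPAR-alpha, was at 4.29, 4.45, 4.80, 4.50 and 4.28 in ischemic arrays, against 9.85, 7.63 and 5.19 in normal arrays. It was near the floor in all ischemic arrays, and its normal arrays were the most spread of the 10 genes, with a range of 4.66. The difference was −3.09 ± 0.85 (limma adjusted p = 0.301). Cyp4a31 differed by −0.73 ± 0.47 (limma adjusted p = 0.883), with 4.12 to 5.14 in ischemic arrays, against 6.58, 4.74 and 4.60 in normal arrays.

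The other bright genes of family 4 had higher means in the ischemic arrays, and none had the groups apart. Cyp4f16 was at 7.49 to 8.75 in ischemic arrays and 7.04 to 7.89 in normal arrays, with a difference of 0.57 ± 0.36 (limma adjusted p = 0.870). Cyp4v3, whose human counterpart is the fatty acid hydroxylase mutated in a crystalline retinal dystrophy, was at 5.60 to 8.54 in ischemic arrays. Its normal arrays read 4.44, 8.29 and 7.21, and the difference of 0.49 became −0.61 without normal 1. The probe set used is marked as shared with other transcripts, and the dimmer one gave 1.11 with the groups overlapping. Of the 7 Cyp4f genes 6 were positive, none with the groups apart.

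**Figure D2:**
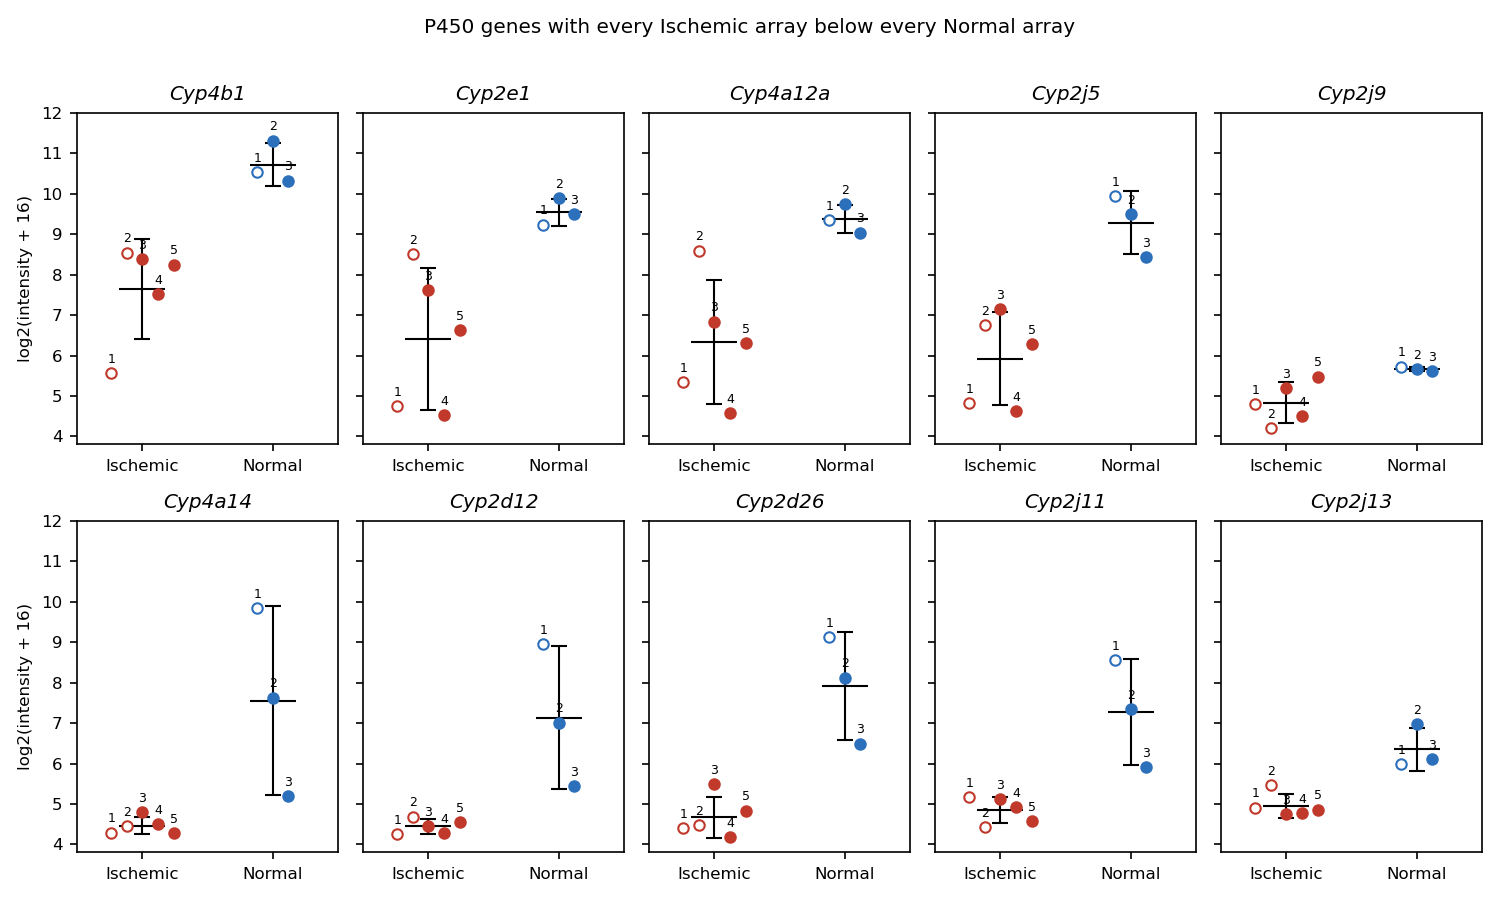
Levels of the 10 P450 genes with every ischemic array below every normal array, as log2(intensity + 16) on the vertical axis. Points are single arrays numbered by replicate, open points are the 3 arrays with high Xist signal, and bars give mean and SD. Cyp2e1 and Cyp4a12a are spread in ischemic arrays and tight in normal arrays, while Cyp4a14, Cyp2d12, Cyp2d26 and Cyp2j11 read no more than 5.48 in ischemic arrays and are spread in normal arrays, highest in normal 1 and lowest in normal 3.

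The 10 genes thus varied in different ways within their groups. Cyp2e1 spanned 3.98 among the ischemic arrays and 0.65 among the normal arrays, and Cyp4a12a spanned 4.03 and 0.70. Cyp4a14 spanned 0.53 among the ischemic arrays and 4.66 among the normal arrays, Cyp2d12 spanned 0.43 and 3.51, and Cyp2d26 spanned 1.30 and 2.64. Normal 1 was the highest normal array in 6 of the 10 genes and normal 2 in 4, while normal 3 was the lowest in 8. Ischemic 2 was the highest ischemic array in 5 of the 10, and ischemic 4 the lowest in 4. Arrays with high Xist signal were in both groups, and the differences were also taken within each set of arrays. Within the 5 arrays of low Xist signal the difference was −1.94 for Cyp4a14, −1.86 for Cyp2d12, −3.47 for Cyp2e1 and −3.54 for Cyp4a12a. Within the 3 arrays of high signal, 2 ischemic and 1 normal, it was −5.34 for Cyp4a14, −4.31 for Cyp2d12, −2.51 for Cyp2e1 and −2.30 for Cyp4a12a. Whether the 2 sets of arrays differ was not tested.

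The number of members that passed depended on normal 3, among other settings. Without that array 108 of the 18193 genes passed limma, among them 4 members, namely Cyp2d26 (adjusted p = 0.0298), Cyp2j11 and Cyp4a14 (adjusted p = 0.0380 for both) and Cyp2d12 (adjusted p = 0.0418). In all 4 genes normal 3 was the lowest normal array, and why the count differs was not tested. Without normal 1, where they were highest, the differences of Cyp2d12 and Cyp4a14 were −1.78 and −1.95, and 0 members passed. With 1 array left out, 10 to 12 members had the groups apart and were lower, against 4.17% to 7.88% of all genes.

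The 10 genes were chosen as lower on every ischemic array, so their lower means on those arrays were fixed in advance. Within the ischemic group, their mean and that of the proximal tubule markers were both lowest on ischemic 1 and ischemic 4. The mean of the 10 was 4.83, 6.01, 5.98, 4.84 and 5.60 in ischemic arrays 1 to 5, against 8.73, 8.32 and 7.20 in the normal arrays. The mean of the 15 proximal tubule markers was 6.72, 7.89, 7.63, 6.05 and 7.08 in the same ischemic arrays, against 10.77, 10.09 and 9.11 in the normal arrays. All 15 markers were negative, 12 with the groups apart, and their summed level ran from 90.8 to 118 in ischemic and from 137 to 162 in normal arrays. They included Kap, an androgen-driven protein of the tubule, at 5.21 to 9.62 in ischemic arrays and 11.53 to 11.90 in normal arrays. No marker of the list was at the floor on every array. Over all genes, 3.44% were lower and 1.89% higher with the groups apart, and 45.2% were negative. The 12 macrophage markers were all positive, 4 with the groups apart, with sums of 108 to 122 in ischemic and 102 to 106 in normal arrays. All 7 measured markers of distal nephron and collecting duct were negative, 5 with the groups apart, and of 11 fibroblast markers 9 were positive with 0 apart. All 7 endothelial markers were negative with 0 apart. Among 6 measured hepatocyte markers 1 was lower with the groups apart, namely Ttr, at 4.47, 4.89, 7.17, 6.40 and 5.28 in ischemic arrays, against 9.42, 10.35 and 7.58 in normal arrays, a difference of −3.47 ± 0.77 (limma adjusted p = 0.183). Its probe set is marked as cross-hybridising. Alb read 5.35 to 6.33 in ischemic and 5.33 to 5.61 in normal arrays, and Ahsg was at 4.09 to 4.42 in ischemic arrays and 4.09 in every normal array. The part of tubule cells or their RNA in the P450 differences was not tested.

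**Figure D3:**
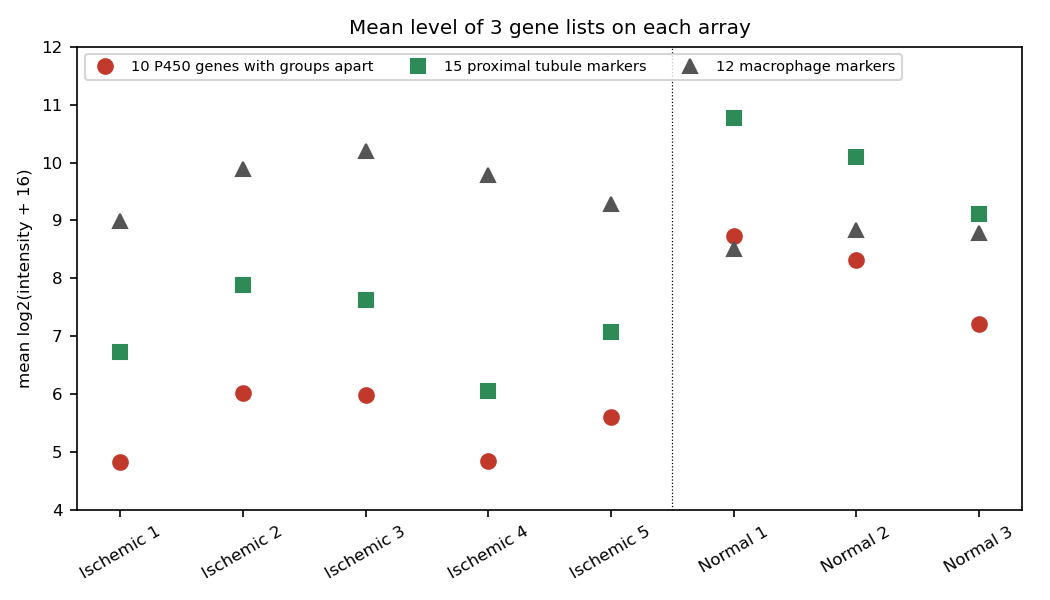
Mean level of the 10 lower P450 genes, of 15 proximal tubule markers and of 12 macrophage markers on each of the 8 arrays (vertical axis, mean log2(intensity + 16)). The P450 mean runs from 4.83 to 6.01 in ischemic arrays and from 7.20 to 8.73 in normal arrays, and these genes were chosen for that gap. The proximal tubule mean is lower on all 5 ischemic arrays.

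None of the 14 P450 genes of sterols, steroid hormones and retinoids had the groups apart. Cyp51, the lanosterol demethylase of cholesterol synthesis, was at 8.38, 8.71, 8.47, 7.97 and 8.20 in ischemic arrays, against 9.64, 8.70 and 8.84 in normal arrays. Only ischemic 2 reached the lowest normal array, and the difference was −0.72 ± 0.28 (SE, n = 5 and 3; limma adjusted p = 0.631). Its 2 dimmer probe sets gave −0.48 and 0.28. Cyp27a1, the mitochondrial sterol hydroxylase of liver and macrophages, was at 7.15 to 8.15 in ischemic arrays and 7.02 to 7.31 in normal arrays. The difference was 0.34 ± 0.27 (limma adjusted p = 0.928), and its dimmer probe set gave −0.20. Cyp39a1, an oxysterol hydroxylase, differed by 0.013 ± 0.43. Cyp26b1 and Cyp26a1, which break down retinoic acid, differed by 0.27 ± 0.54 and 0.26 ± 0.46, and they were at −0.23 without normal 1 and −0.087 without ischemic 1. Cyp20a1, whose substrate is unknown, was at 6.01 to 8.75 in ischemic arrays and 7.32 to 9.27 in normal arrays, with a difference of −0.84 ± 0.70 (limma adjusted p = 0.932). Its dimmer probe sets gave −1.0 and 0.72. Cyp11a1, which makes the first cut in steroid synthesis, differed by 0.36 ± 0.60, which became −0.10 without ischemic 1, and Cyp21a1, an adrenal hydroxylase, by 0.017 ± 0.23. Cyp2r1, which hydroxylates vitamin D, differed by 0.43 ± 0.38 at levels between 4.09 and 5.71.

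Ischemic 1 was the highest of the 8 arrays in 21 of the 71 members, 19 of them below the median level. It was the highest in 25.1% of all genes, so the members' share is near that of all genes. The members with the widest lead are given as a description. Cyp2d40 read 9.61 there, against 5.08 to 6.43 in the other ischemic arrays and 5.78 to 6.56 in normal arrays. Cyp2d22 read 8.11 on ischemic 1, against 4.94 to 5.78 in the other ischemic arrays and 4.86 to 5.95 in normal arrays. Cyp4f18, which hydroxylates leukotrienes in mouse neutrophils, read 7.88, against 4.61 to 5.58 in the other ischemic arrays and 4.76 to 5.79 in normal arrays. Cyp11a1 read 7.99, and on the same array Nr5a1, the factor that drives steroid synthesis genes, read 7.55 and Star 8.01, above the other 7 arrays for both. The other adrenal markers, Hsd3b1 and Mc2r, were under 5 on every array. Whether these values come from the cells or from the array was not tested.

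**Figure D4:**
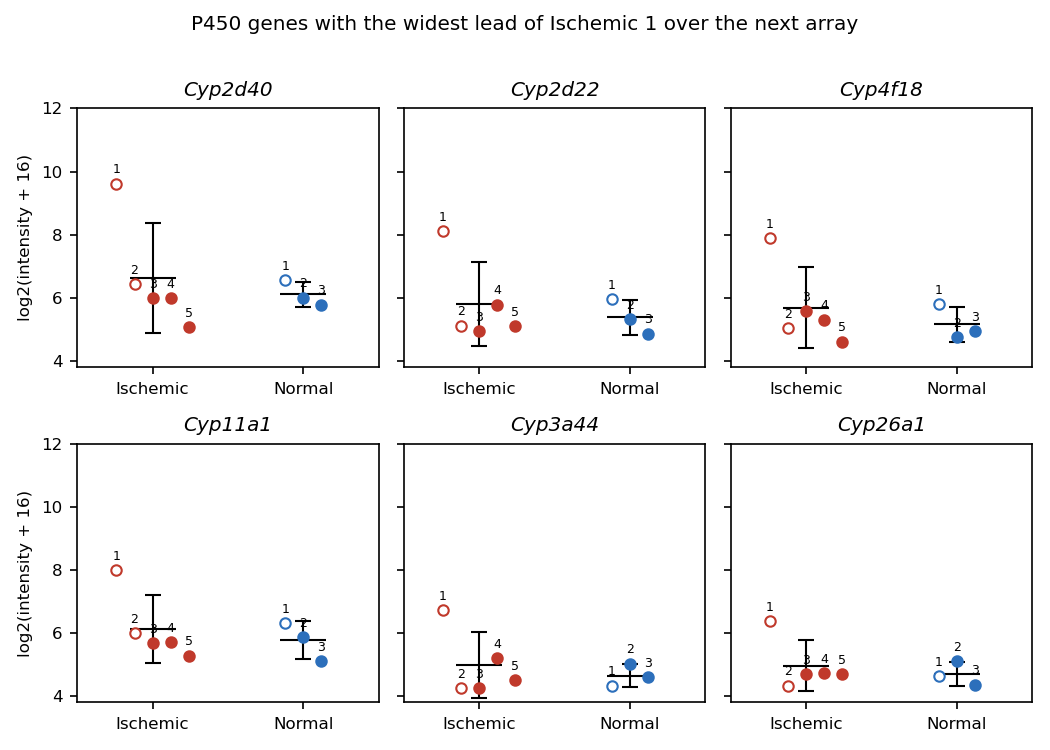
Levels of the 6 P450 genes in which ischemic 1 leads the next array by most, as log2(intensity + 16) on the vertical axis, with points numbered by replicate, open points for arrays of high Xist signal, and bars for mean and SD. Cyp2d40 stands at 9.61 on ischemic 1, and on the other arrays no value of these 6 genes is above 6.56.

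Most of the lower genes lie in the clusters of their own subfamilies on chromosome 4. In the RefSeq gene order of assembly GRCm38.p6, 7 of the 10 lie on chromosome 4, where 11 members lie in all, and 2 of the 10 members on chromosome 15 were lower with groups apart. The Cyp2j cluster holds Cyp2j13, Cyp2j11, Cyp2j6, Cyp2j9 and Cyp2j5 in that order among its measured genes, and the Cyp4 cluster further along holds Cyp4x1, Cyp4a12a, Cyp4a14, Cyp4a31 and Cyp4b1. Within these clusters Cyp2j6 (−0.55) and Cyp4a31 (−0.73) were negative with the groups overlapping, and Cyp4x1 was near the floor on every array. None of the 13 members on chromosome 19, which holds the Cyp2c cluster, had the groups apart.

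Promoters of the family were read next, with those of the 10 genes chosen as lower on every ischemic array. RefSeq promoter windows of GRCm38.p6, each of 300 bases around the transcript start, were found for 51 of the 71 members and for 7 of the 10 lower ones. The windows of 4 lower genes of different subfamilies are given 5′ to 3′ on the strand of the gene, with capitals for a match to the TATA box core TATAAA on either strand. Cyp2e1 is chr7:140763569-140763868 on the plus strand, and Cyp2j5, Cyp2d26 and Cyp4b1 are chr4:96664070-96664369, chr15:82794196-82794495 and chr4:115647672-115647971 on the minus strand.
Cyp2e1: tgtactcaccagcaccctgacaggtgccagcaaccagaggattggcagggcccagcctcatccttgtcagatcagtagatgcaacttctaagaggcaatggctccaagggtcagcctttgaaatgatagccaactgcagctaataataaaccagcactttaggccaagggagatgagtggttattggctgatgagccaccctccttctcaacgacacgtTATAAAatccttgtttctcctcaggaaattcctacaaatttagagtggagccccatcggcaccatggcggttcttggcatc
Cyp2j5: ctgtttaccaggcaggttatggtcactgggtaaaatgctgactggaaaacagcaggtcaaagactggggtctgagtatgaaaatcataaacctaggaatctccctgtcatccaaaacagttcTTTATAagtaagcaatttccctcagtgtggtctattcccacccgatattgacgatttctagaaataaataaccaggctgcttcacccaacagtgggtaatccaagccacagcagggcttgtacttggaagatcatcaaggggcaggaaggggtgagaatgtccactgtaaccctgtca
Cyp2d26: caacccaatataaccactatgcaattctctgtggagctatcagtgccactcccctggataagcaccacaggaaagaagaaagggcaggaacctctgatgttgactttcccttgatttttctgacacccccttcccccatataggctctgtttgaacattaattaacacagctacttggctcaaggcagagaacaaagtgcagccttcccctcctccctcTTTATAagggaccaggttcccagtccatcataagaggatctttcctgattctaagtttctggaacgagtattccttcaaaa
Cyp4b1: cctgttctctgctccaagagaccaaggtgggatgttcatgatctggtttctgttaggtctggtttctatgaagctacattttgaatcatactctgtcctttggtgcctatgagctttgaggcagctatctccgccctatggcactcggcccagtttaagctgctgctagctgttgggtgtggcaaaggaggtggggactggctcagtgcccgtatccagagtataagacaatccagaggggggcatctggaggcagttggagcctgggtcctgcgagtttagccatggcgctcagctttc
TATAAA was found in 13.6% of the 32851 windows searched, in 21 of the 51 P450 genes and in 3 of the 7 lower ones. These 3 were Cyp2e1, Cyp2j5 and Cyp2d26. Counted from the start, the match began at −31 in Cyp2e1, at −31 on the opposite strand in Cyp2d26 and at −128 on the opposite strand in Cyp2j5. Cyp4b1 held no match in this window.

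The HNF4 element core CAAAGTCCA was searched because HNF4 is a known regulator of liver and kidney P450 genes. It was found on either strand in 0.475% of the windows searched, in 6 of the 51 P450 genes and in 0 of the 7 lower ones. The 6 were Cyp2c65, Cyp2c68, Cyp2c70, Cyp3a11, Cyp3a16 and Cyp8b1, whose differences ran from −0.066 for Cyp3a11 to 0.22 for Cyp2c68 and which all overlapped between groups. The window of Cyp8b1, the bile acid hydroxylase of the liver, chr9:121916256-121916555 on the minus strand, is shown with that match in capitals.
Cyp8b1: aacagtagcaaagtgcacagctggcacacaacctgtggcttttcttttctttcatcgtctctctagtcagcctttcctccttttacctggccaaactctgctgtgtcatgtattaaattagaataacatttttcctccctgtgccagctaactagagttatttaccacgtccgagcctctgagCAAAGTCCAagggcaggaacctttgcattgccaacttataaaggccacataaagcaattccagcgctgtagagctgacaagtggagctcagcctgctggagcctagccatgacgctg
Cyp2c65, Cyp2c68 and Cyp2c70 are paralogs, as are Cyp3a11 and Cyp3a16, so their shared matches are not independent. With only 7 lower genes, 0 matches cannot tell them from the other members. Also searched were a direct repeat of AGGTCA with 1 base between and an HNF1 palindrome. They were found in only 13 and 3 of the 32851 windows searched. Each was found in 0 of the 51 P450 genes, which says nothing about the family, since strings this rare are hardly ever met.

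Genes that serve P450s or share their substrates were read from 7 further lists, in all of which 0 genes passed limma over all genes. The counts below stand beside 3.44% of all genes lower and 1.89% higher with the groups apart, and 45.2% negative. Of the 9 genes on the electron donor list 6 were measured. Por, the reductase gene, was not among them, nor were Fdxr and Fdx1l. All 6 were negative and 2 had the groups apart, with a median of −1.04. They include Pgrmc1 (−0.82) and Pgrmc2 (−0.69), which bind P450s but are not electron donors themselves. Fdx1, the ferredoxin that feeds mitochondrial P450s, was at 8.18, 8.76, 9.18, 8.93 and 9.23 in ischemic arrays, against 10.42, 10.26 and 9.60 in normal arrays, a difference of −1.24 ± 0.31 (SE, n = 5 and 3; limma adjusted p = 0.236). Cyb5a, the cytochrome that can pass electrons to microsomal P450s, differed by −1.63 ± 0.65 with the groups apart, and Cyb5r3, its reductase, by −1.0 ± 0.52 with the groups overlapping. A different probe set of Cyb5r3 gave 0.12. Of the 7 measured genes of heme synthesis, 6 were negative and 1, Cpox, had the groups apart at −1.14 ± 0.34. Urod was at −0.14 ± 0.39, and the median of the list was −0.77.

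Among 14 measured receptors and factors that control P450 genes, 2 were lower and 1 higher with the groups apart, and the median was 0.16. Hnf4a, a master factor of liver and proximal tubule, was at 6.30, 7.52, 7.28, 5.27 and 6.76 in ischemic arrays, against 10.52, 9.57 and 8.59 in normal arrays, a difference of −2.93 ± 0.59 (limma adjusted p = 0.150). Nr1h4, the bile acid receptor, differed by −1.53 ± 0.40. Ppara overlapped, at 4.68 to 6.64 in ischemic arrays, against 9.65, 8.83 and 5.10 in normal arrays. The aryl hydrocarbon receptor Ahr was at 7.64 to 8.62 in ischemic and 6.66 to 8.99 in normal arrays, while its repressor Ahrr, dim on every array, differed by 0.46 ± 0.27 with the groups apart. Nr3c1, the glucocorticoid receptor, differed by −0.49 ± 0.36 and Nfe2l2 by 0.18 ± 0.42.

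Of 20 measured genes for other drug-metabolising enzymes, 18 were negative, and the median was −1.64. In 10 of them the groups were apart and lower in ischemic arrays, against 3.44% of all genes. Ces1f, a carboxylesterase, was at −2.75 ± 0.42 (limma adjusted p = 0.128), Fmo1, a flavin monooxygenase, at −3.10 ± 0.55, and Sult1d1, a sulfotransferase, at −3.45 ± 0.70. The glycosyltransferase genes Ugt3a1 and Ugt3a2 were at −2.86 ± 0.50 and −3.05 ± 0.49. Ephx2, the soluble epoxide hydrolase that breaks down the epoxides made by Cyp2c and Cyp2j enzymes, was at 5.67, 5.60, 5.48, 4.69 and 5.24 in ischemic arrays, against 8.43, 7.41 and 6.49 in normal arrays, a difference of −2.10 ± 0.43.

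Of 14 measured genes of the other arachidonic acid routes, 10 were positive, and the median was 0.43. Only 1 had the groups apart, and it was higher, against 1.89% of all genes. That gene was Tbxas1, thromboxane synthase, itself a P450 by structure and expressed in macrophages and platelets, at 7.68, 7.49, 8.63, 7.29 and 7.0 in ischemic arrays, against 6.24, 6.64 and 6.97 in normal arrays. The difference was 1.00 ± 0.38 (limma adjusted p = 0.582), and the gap between ischemic 5 and normal 3 was small. Ptgs2, the inducible cyclooxygenase, was at 0.86 ± 0.54 and Alox5ap, which presents arachidonic acid to lipoxygenase, at 0.69 ± 0.42, both with the groups overlapping. In cholesterol synthesis, where Cyp51 acts, 8 of 17 measured genes were negative and the median was 0.0080. Hmgcs1, which acts early in that route, had the groups apart at −1.17 ± 0.30 (limma adjusted p = 0.254), and Idi1 was at −0.27 ± 0.34. Of 9 measured genes of retinoic acid synthesis and binding, 3 were negative, and Crabp2 had the groups apart at 0.70 ± 0.40, with 6.69 on ischemic 1. Rara was at 0.62 ± 0.43 and Rarg at −0.56 ± 0.54.

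**Figure D5:**
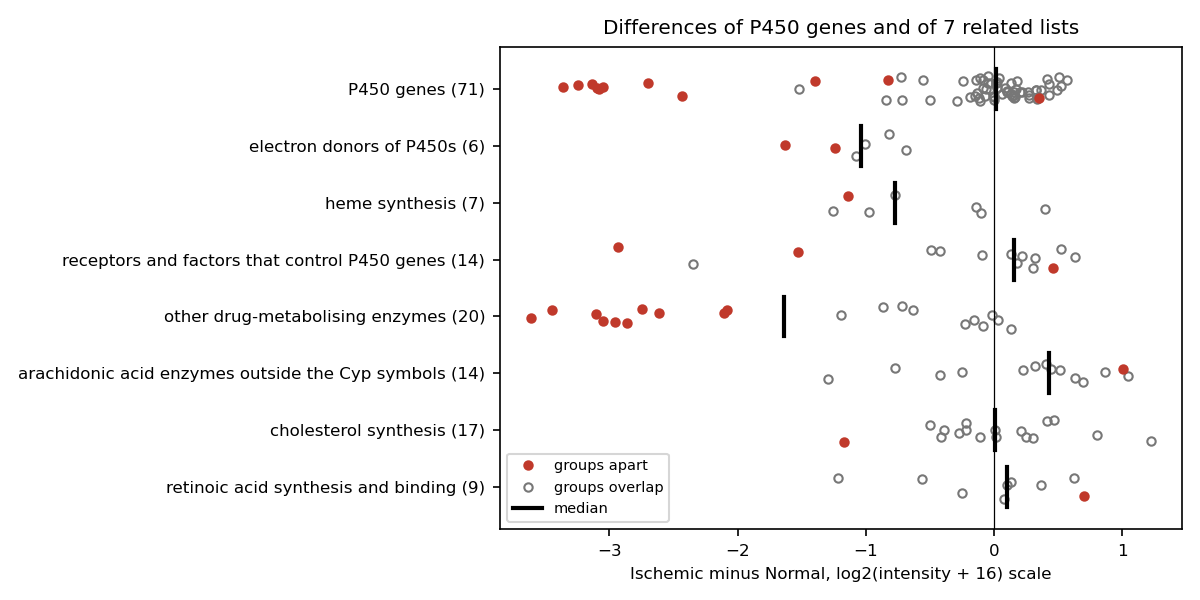
Differences between groups (horizontal axis, ischemic minus normal on the log2(intensity + 16) scale) of the 71 P450 genes and of the measured genes of 7 related lists. Filled points are genes with the groups apart and black bars are medians, which lie at 0.013 for the P450 genes and at −1.64 for the other drug-metabolising enzymes.

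Probe sets limited some of these readings. Of the 71 members 53 had 1 probe set and 18 had several, and among the 18 the probe sets had the same sign in 8 and both signs in 10. The probe set used had no suffix letter in 63 members, among them all 10 with lower values and groups apart. It had the letter for shared probes (s) in 4, the letter for cross-hybridising probes (x) in 0, and the letter a in 4. Close paralogs such as those of the Cyp2d and Cyp4a subfamilies can still share signal. A further 4 probe sets assigned to several P450 genes each were not used.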

How the data were processed

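RNA of GFP-positive cells sorted from 5 ischemic and 3 normal kidneys was amplified and read on Affymetrix mouse arrays, per the labels' protocols. The deposited values are intensity per probe set on a linear scale, from 0.6 upward. What software and scaling the authors used is not given in these sources, and arrays hold no read depth, so their number limits the precision. Of 45101 probe sets, 34945 had 1 gene symbol in the platform annotation, 932 had several and 9160 were not listed, with 64 controls left out. Values were quantile normalized as log2(intensity + 16), and each of 18193 genes was read from its brightest probe set. The group difference was fitted in R 4.3.3 with limma 3.58.1 (lmFit, then eBayes) and Benjamini-Hochberg adjustment over all genes at 0.05, after a test on simulated data. "Apart" means that no value of one group lay within the range of the other. Kidneys are described as separate. The family, lists, motifs and tests were chosen with earlier results of these data known.

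Genes were named by rule: members at or above the median level, the 12 dimmer members of lowest p, the brightest of each role, and from each list up to 6 with groups apart and the 2 brightest. Named outside the rule, after their values were seen, were Cyp2j6, Cyp4x1, Cyp1a2, Cyp7a1, Cyp17a1, Cyp2d22, Cyp4f18, the 6 genes with an HNF4 match, Ppara, Ahr, Kap, Star, Nr5a1, Hsd3b1, Mc2r, Alb, Ttr and Ahsg. Cell type lists were those of proximal tubule, distal nephron, macrophage, fibroblast, endothelium, hepatocyte and adrenal cortex. Alternatives changed the scaling, pseudocount, filter, probe set choice, variance model, replicate block, Xist level and single arrays.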

Additional observations from a re-analysis of the deposited data

Results flagged for a closer look

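In the 5 ischemic arrays, 51 named genes were examined for 1 array far from the others, and 5 had one. Chance alone gives about 1 in 20 such genes. Cyp11a1 was at 7.99 on ischemic 1, against 5.28 to 5.99 on the other ischemic arrays. Cyp26a1 was at 6.37 on ischemic 1, against 4.33 to 4.74. The retinoic acid binding protein gene Crabp2 was at 6.69 on ischemic 1, against 5.04 to 5.26. Cyp2j13 was at 5.47 on ischemic 2, against 4.75 to 4.91, still below every normal array. Ahrr was at 5.27 on ischemic 4, against 4.25 to 4.55. In 3 of the 5 the array was ischemic 1, which also had the lowest correlation with the other arrays.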

How the results depend on the processing

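Over 22 alternatives, 51 named genes gave 1046 values, of which 991 kept their direction and side of the threshold, 19 newly passed it and 36 changed sign. The 10 lower members, chosen because their groups were apart, had them apart under both centrings and when a gene's probe sets were averaged. Most other alternatives leave out arrays or change the variance model and could hardly end the separation. Centring on ribosomal protein genes moved the median of all genes to −0.13, against 0.041 as reported. By its symbol pattern that gene set includes a few S6 kinase genes. Then 144 of the 18193 genes passed, among them 3 members (Cyp2d26, Cyp2j5 and Cyp4b1). There 0 members were higher with the groups apart and the family median was −0.10. With a pseudocount of 1, 1 member was higher at an unadjusted p under 0.05. With only genes at or above the median level, 4 members were lower at that p and 4 lower with the groups apart. The shares of all genes kept were 6.25% and 4.45%. There 0 members were higher with the groups apart, and the median was −0.22, since dim genes were left out. With array weights the median was −0.054. Leaving out 1 array gave 0 to 4 members past the threshold and 9 to 11 lower at an unadjusted p under 0.05. It gave 10 to 12 lower and 1 to 3 higher with the groups apart, and a median of −0.065 to 0.061. Over all genes, those fits gave 3.32% to 6.16% lower at that p and 4.17% to 7.88% lower with the groups apart. Within arrays of low Xist signal 16 members were lower with the groups apart, against 10.2% of all genes. There 4 members were higher with the groups apart, and the median was −0.075. Within those of high signal, where 1 array stands for the normal group and is assumed to vary like the others, 6 were lower at an unadjusted p under 0.05, 23 lower and 23 higher with the groups apart, and the median was 0.091. Within the arrays of high signal 32.1% of all genes were lower with the groups apart, so the share of the 71 members lower there is near that of all genes. The cause of the shifts between settings was not tested, other than the fewer arrays that separate more easily.

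With the replicate number as a block, 0 members passed, as without it, and Cyp4v3 was at −0.026, Cyp21a1 at −0.020 and Nfe2l2 at −0.17. Same-numbered arrays correlated at 0.16, −0.088 and 0.10 after group means were removed. Differently numbered arrays ran from −0.28 to 0.31, and so few pairs cannot show whether the numbers pair the arrays. Other changes of sign were not all in small differences. The reported differences of Cyp21a1 and Cyp39a1 were small, while those of Cyb5r3, Rarg, Cyp2d40 and Cyp4v3 were larger. Under ribosomal centring Cyp21a1 was −0.10, Cyp39a1 −0.089 and Nfe2l2 −0.14. Cyp39a1 was −0.26 with a pseudocount of 1, Cyp21a1 −0.076 with the mean of all probe sets and Cyb5r3 0.12 with probe sets without a suffix letter. With array weights Cyp2d40 was −0.12, Cyp26b1 −0.084, Cyp21a1 −0.064 and Urod 0.19. Within low Xist arrays Cyp2d40 was −0.22, Cyp26b1 −0.38, Cyp26a1 −0.039, Cyp21a1 −0.14, Cyp39a1 −0.18 and Urod 0.43, and within high Xist arrays Nfe2l2 was −0.24 and Rarg 0.20. Leaving out 1 array, Cyp2d40 ran from −0.25 to 0.89, Cyp11a1 from −0.10 to 0.63, Cyp26a1 from −0.087 to 0.47, Cyp26b1 from −0.23 to 0.62, Cyp4v3 from −0.61 to 1.30, Cyp21a1 from −0.19 to 0.12, Cyp39a1 from −0.14 to 0.32, Urod from −0.47 to 0.27 and Rarg from −0.89 to 0.34.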
